A study of Homo sapiens with 9 samples.

Results

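The replication-dependent histone genes encode the linker histone H1 and the core histones H2A, H2B, H3 and H4 that package newly copied DNA. They were chosen by name: protein-coding genes whose current symbol is H1-1 to H1-6 or starts with H2AC, H2BC, H3C or H4C. The rule gave 70 genes, of which 66 were matched to a row among the 60308 genes counted, and 55 had enough reads to be tested among 18435 genes tested in all. By class the 70 are 6 genes of H1, 17 of H2A, 19 of H2B, 13 of H3 and 15 of H4. By their older symbols 55 belong to the large HIST1 cluster, 11 to HIST2, 2 to HIST3 and 1 to HIST4, and 1 has no such symbol. H4C2, H2BC7, H2BC8 and H4C6 were matched to no row and were not analysed here.

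The cells were MCF10A, an immortalised, non-tumour line of human breast epithelium, grown asynchronously. All 9 cultures carried ectopic MYC (pBABE-hygro-MYC) and an activated mutant of the PI3K catalytic subunit (pMN-IRES-GFP-PI3KH1047R), the controls included. Each also held a doxycycline-inducible hairpin (pLKO-tetON-puro) and received 2 µg/mL doxycycline for 72 hours: a scrambled control (shSCR), or 1 of 2 hairpins against EHMT2, which encodes the histone H3 lysine 9 methyltransferase G9a (shG9a_1 and shG9a_4), with 3 biological replicates each. The series title names MYC, G9a and repression, so the comparison asks which RNAs differ once EHMT2 is knocked down. The labels give a single line with 1 set of constructs, so the results hold for that engineered line.

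Replication-dependent histone genes are transcribed in S phase, when DNA synthesis needs a matching supply of histones. Their transcripts are the only known metazoan mRNAs that lack a poly(A) tail: they end after a conserved stem-loop, which the stem-loop binding protein SLBP holds from processing to translation and which marks the mRNA for fast decay when replication stops. Transcription is switched on through NPAT at histone locus bodies. Because the libraries were made from total RNA after removal of ribosomal RNA, and not by selection on poly(A), these transcripts were measured directly.

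The stem-loop was searched as 6 base pairs (G-T allowed), opening with GG and closed by T-A, around a loop of 4 bases with T at places 1 and 3, in the GENCODE 29 transcript models of the 66 genes. It was found in 28 genes, starting 22 to 67 bases after the stop codon (median 36). In 31 genes the model ends at the stop codon, so their 3' ends could not be read, and the other 7 hold further sequence without a match. The 16 bases took 6 forms. The most common form was shared by 16 genes of the H2A, H2B and H3 classes, and the 7 H4 genes with a match had 2 forms of their own, held by 4 and 3 genes. The lines below show the forms on the coding strand, with 5 flanking bases in lower case and the stem-loop in capitals. H2BC21, H2BC26 and H2AC8 share the common form, H3C8 stands for 3 genes, H3C6 and H2AC11 each have a form of their own, and H4C8 and H4C9 show the 2 H4 forms.
H2BC21: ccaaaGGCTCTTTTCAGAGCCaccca
H2BC26: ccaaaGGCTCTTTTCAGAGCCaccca
H2AC8: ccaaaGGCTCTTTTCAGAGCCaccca
H3C8: aaaaaGGCTCTTTTAAGAGCCgccta
H3C6: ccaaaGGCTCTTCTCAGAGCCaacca
H2AC11: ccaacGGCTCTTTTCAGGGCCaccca
H4C8: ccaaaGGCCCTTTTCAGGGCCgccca
H4C9: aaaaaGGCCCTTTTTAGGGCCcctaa

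The promoters differed by class. Of the 70 genes, 64 have an entry in RefSeq's table of promoters (GRCh38.p14), from which the 250 bases before the start were read and searched on both strands for 4 short motifs. CCAAT, the binding site of NF-Y, was present in all 6 H1, 16 H2A, 18 H2B and 11 H3 promoters but in 3 of 13 H4 promoters, against 32.0% of all 35116 promoters in the table. The octamer ATTTGCAT, bound by OCT1 and its coactivator in H2B transcription, was present in 14 of 18 H2B and 11 of 16 H2A promoters, in 1 of 11 H3 promoters and in no H1 or H4 promoter, against 1.63% of all promoters. These counts are not independent: 11 pairs of an H2A and an H2B gene share 193 to 247 of the 250 bases on opposite strands, and 8 of the pairs count the octamer in both classes. The 1 H3 promoter with the octamer, that of H3C4, has the same window in the table as that of H2AC7. AAACACA, the box described in H1 promoters, was present in all 6 H1 promoters and in no other promoter of the 64, against 4.82% of all promoters. TATAAA was present in 42 of 64, against 10.7% of all promoters. It was counted on either strand and at any distance from the start, so a match need not be a TATA box of the gene named. The 3 promoters below are shown because they belong to genes described further on and carry 3 different sets. H1-1 has CCAAT and TATAAA, and the H1 box on the other strand only. H2BC14 has CCAAT on both strands and the octamer. Its TATAAA is on the other strand only, within the 244 bases shared with the promoter of H2AC14. H4C8 has none of the 4. They run 5' to 3' on the strand of the gene, and capitals mark the motifs, also where a motif lies on the other strand.
H1-1, chr6:26017788-26018037, minus strand: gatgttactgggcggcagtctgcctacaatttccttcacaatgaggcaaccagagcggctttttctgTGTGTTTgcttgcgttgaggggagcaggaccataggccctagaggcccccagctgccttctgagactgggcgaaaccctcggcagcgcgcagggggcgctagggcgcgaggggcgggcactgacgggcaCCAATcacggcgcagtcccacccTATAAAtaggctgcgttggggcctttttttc
H2BC14, chr6:27814772-27815021, plus strand: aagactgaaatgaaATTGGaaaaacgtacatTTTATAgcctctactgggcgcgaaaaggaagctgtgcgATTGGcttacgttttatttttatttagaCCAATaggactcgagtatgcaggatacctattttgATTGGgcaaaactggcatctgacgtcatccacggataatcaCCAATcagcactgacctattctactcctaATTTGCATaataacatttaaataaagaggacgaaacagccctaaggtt
H4C8, chr6:26285535-26285784, minus strand: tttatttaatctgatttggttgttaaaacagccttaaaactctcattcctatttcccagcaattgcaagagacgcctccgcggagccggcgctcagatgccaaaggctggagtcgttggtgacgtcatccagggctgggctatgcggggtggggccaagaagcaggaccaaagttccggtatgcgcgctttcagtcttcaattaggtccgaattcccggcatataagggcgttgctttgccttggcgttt

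**Figure D1:**
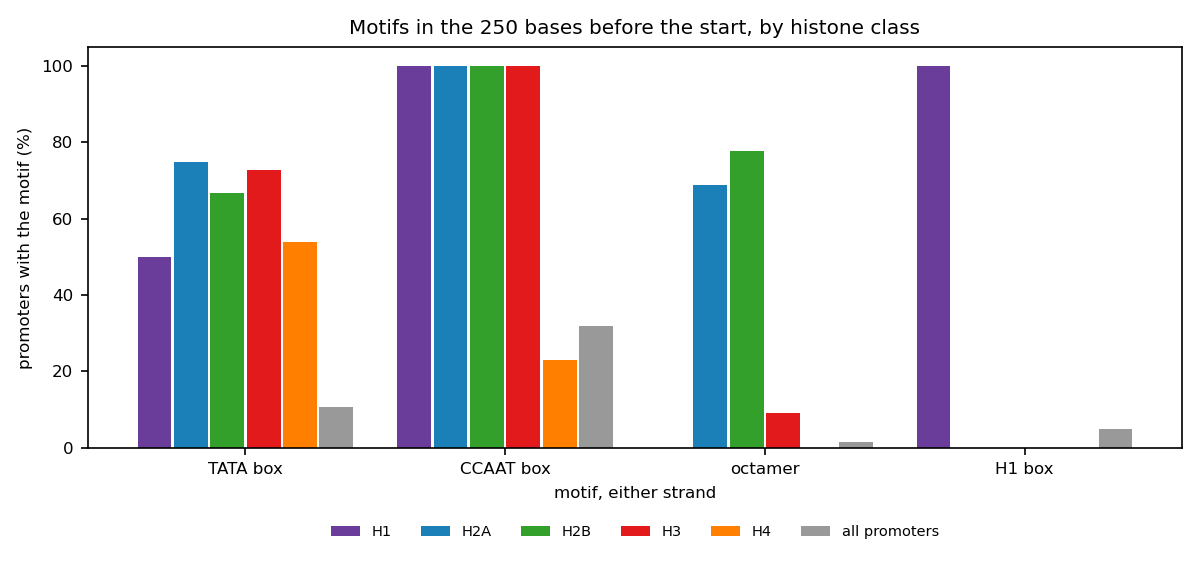
Share of promoters (%) that hold each of 4 motifs on either strand within 250 bases before the start, by histone class (6 H1, 16 H2A, 18 H2B, 11 H3 and 13 H4 promoters), with all 35116 promoters of the RefSeq table in grey. The H1 box stands at 100% in H1 and at 0 in the other classes, and the octamer is found mainly in H2A (68.8%) and H2B (77.8%).

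The libraries held 53065611 to 76958831 reads in genes, and 26759 to 28346 genes were detected in each. EHMT2 was at 45.2 to 51.1 CPM (read counts scaled by library size) in shSCR, at 17.6 to 22.6 CPM under shG9a_1 and at 27.2 to 33.5 CPM in shG9a_4. By edgeR it fell by 1.21 on the log2 scale in shG9a_1 (SE 0.11; adjusted p = 0.00766). In shG9a_4 the value was −0.61 (SE 0.11; adjusted p = 0.259). All 10 markers of breast epithelium were above 1 CPM, with summed levels of 2965 to 4541 CPM in shSCR, 3736 to 5271 CPM in shG9a_1 and 3273 to 4793 CPM in shG9a_4. Of 8 fibroblast markers 3 were above 1 CPM on average, 1 of 5 leukocyte and 0 of 3 endothelial markers were, and their sums were at most 422, 6.29 and 1.42 CPM in any library.

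Histone mRNA made up 0.34 to 0.481% of the reads in genes. Counted per kilobase of coding sequence and summed over the genes of a class, the level in shSCR was 3120 ± 36.5 CPM per kilobase for H2B, 2646 ± 116 for H4, 1925 ± 32.9 for H2A, 1719 ± 58.0 for H1 and 1613 ± 41.04 for H3 (SD, n = 3 each). The levels of H1 and H3 lay closest, and the classes kept this order in both hairpin groups. The single genes with the highest level per kilobase over the 9 libraries were H4C3 (625 CPM per kilobase), H1-2 (584), H4C8 (532) and H4C5 (504). The HIST1 cluster gave 89.4% of all reads on these genes and HIST2 gave 8.06%.

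Summed over the 66 genes, histone mRNA was lowest in 2 libraries, 1 of each knockdown group. Of the other 4 knockdown libraries, shG9a_1 replicate 2 also lay below all controls, by a smaller margin, and 1, shG9a_4 replicate 3, lay above all controls. The sum was 4434, 4605 and 4602 CPM in shSCR replicates 1, 2 and 3, 3466, 4259 and 4534 CPM for shG9a_1 in the same order, and for shG9a_4 it was 4549, 3450.3 and 4723 CPM. The group means were 4547 ± 97.9, 4086 ± 555 and 4241 ± 690.2 CPM (SD, n = 3 each), so both knockdown groups varied far more among themselves than the control did. shG9a_1 replicate 1 and shG9a_4 replicate 2 stood lowest in the sum of each of the 5 classes. The log2 ratio of the means was −0.15 for shG9a_1 against shSCR (exact two-sided permutation test, p = 0.2, where 3 against 3 cannot go below 0.1), −0.10 for shG9a_4 (exact p = 0.8) and 0.054 for shG9a_4 against shG9a_1 (exact p = 0.6). For the 6 knockdown libraries against shSCR it was −0.13 (exact p = 0.357, n = 6 and 3, where the smallest possible p is 0.0119). The 2 low libraries were then left out because of these sums, which by itself raises the knockdown means. Without them the ratio was −0.049 for shG9a_1, 0.028 for shG9a_4 and −0.0099 for both hairpins. None of the 24 such tests over the total and the 5 classes was below 0.874 after Benjamini-Hochberg adjustment, and the lowest raw exact p was 0.119, for H4 with both hairpins. Fewer cells in S phase and less histone mRNA per cell cannot be told apart in such bulk samples.

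**Figure D2:**
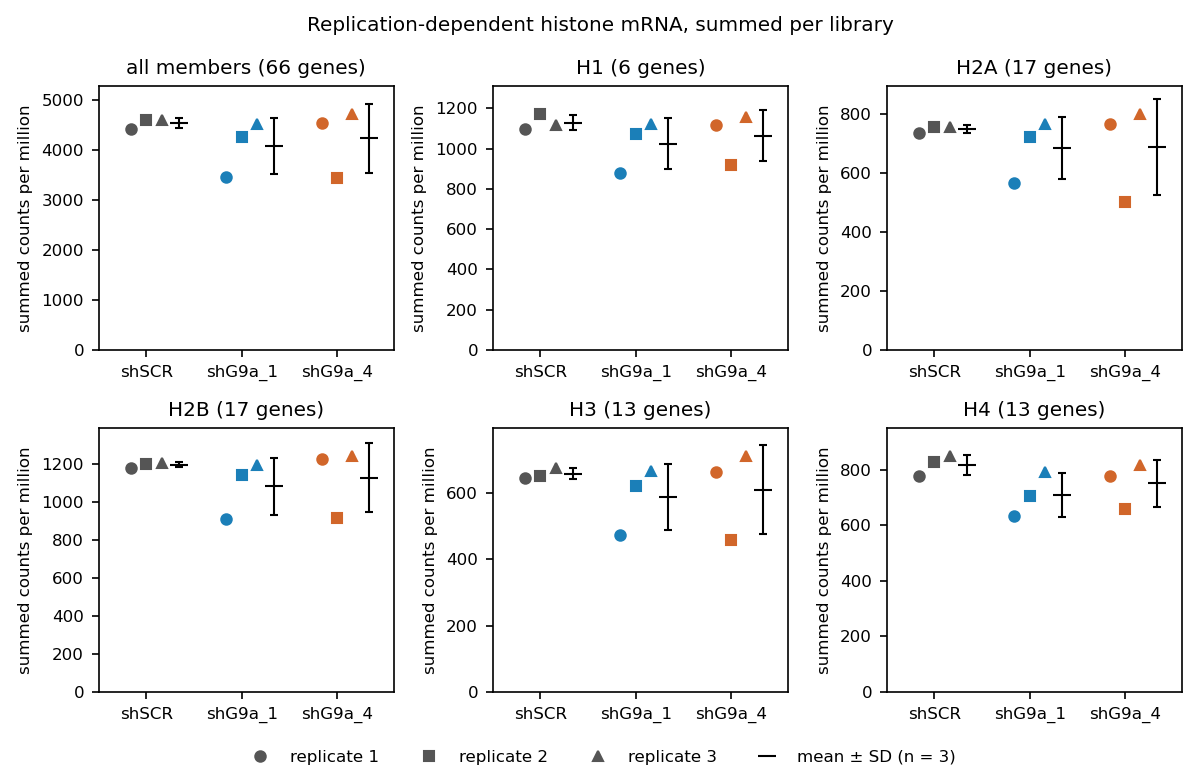
Summed CPM of all 66 matched histone genes and of each class in each library. Points are libraries, with the shape giving the replicate number, and the bars show the mean ± SD of 3 libraries. shG9a_1 replicate 1 (3466 CPM) and shG9a_4 replicate 2 (3450.3 CPM) stand below the other 7 libraries in every panel.

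The drop in these 2 libraries ran through nearly all members. Relative to the mean of shSCR, the median of the 55 tested genes was −0.42 on the log2 scale in shG9a_1 replicate 1 and −0.46 in shG9a_4 replicate 2, and 53 of 55 genes were below that mean in each. In the other 4 knockdown libraries the median lay between −0.060 and 0.066. Within its own group, shG9a_1 replicate 1 was the lowest of 3 libraries for 52 of 55 genes (94.5%), against 31.7% of all genes tested. shG9a_4 replicate 2 was the lowest for 49 of 55 (89.1%), against 35.3% of all genes. Both libraries were picked by the sums of these same genes, so high shares were partly built in. H1-6 and H4C9, both under 1 CPM, were the 2 genes above the shSCR mean in both libraries. By class, the median in shG9a_4 replicate 2 was −0.55 for H2A, −0.47 for H3, −0.46 for H4, −0.39 for H2B and −0.15 for H1, whereas in shG9a_1 replicate 1 all 5 medians lay between −0.50 for H3 and −0.37 for H1 and H2B. The counts of members lower or called, and the single histone genes whose values move most, are therefore also given without these 2 libraries.

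**Figure D3:**
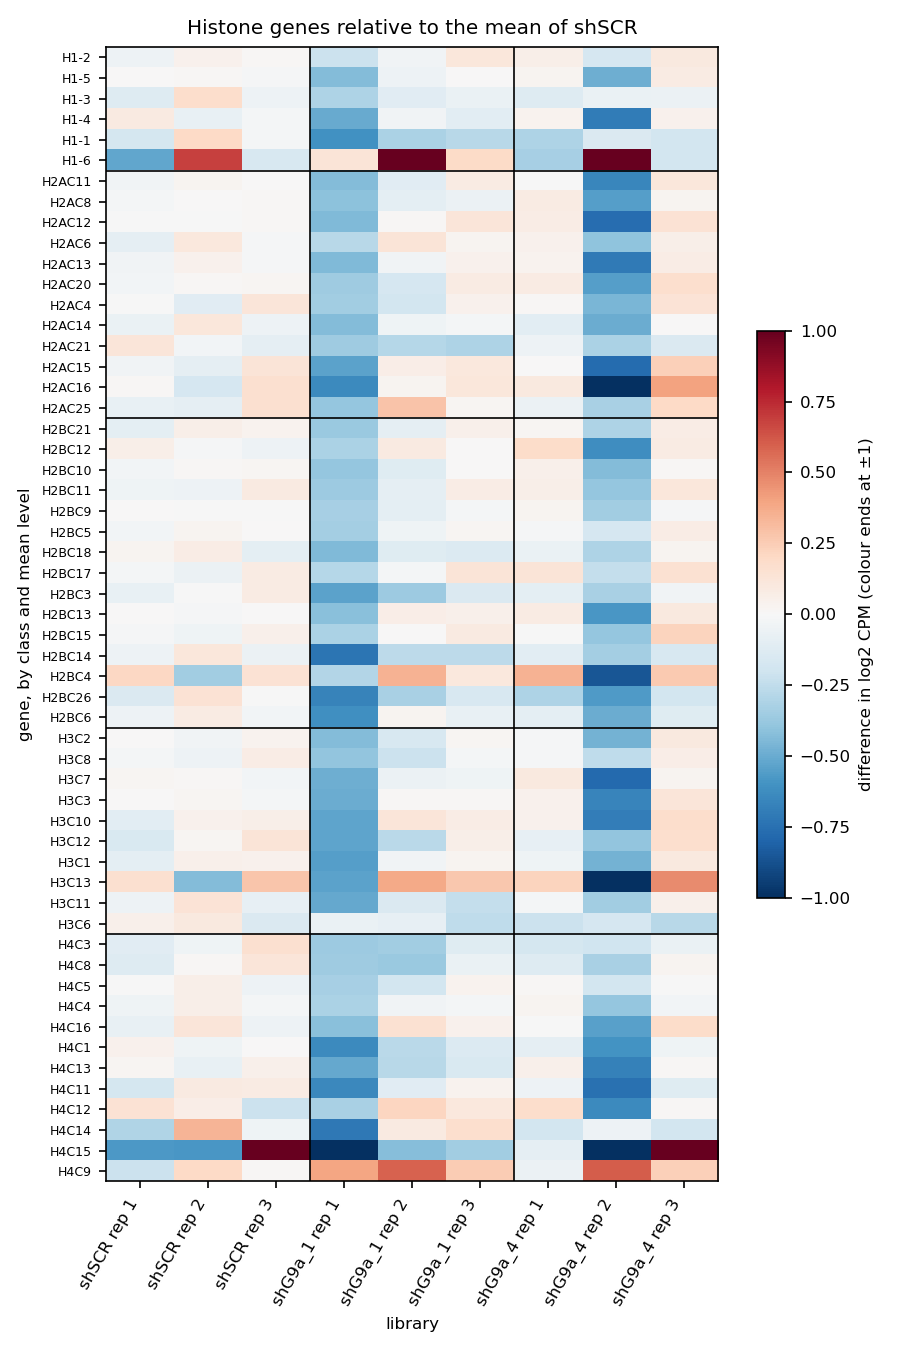
Difference in log2 CPM from the mean of shSCR for the 55 tested histone genes (rows, by class and then by mean level) in the 9 libraries (columns), with colour ending at ±1. The columns of shG9a_1 replicate 1 and shG9a_4 replicate 2 are blue almost throughout, with 53 of 55 genes below the shSCR mean in each, while the other knockdown columns are mixed.

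Levels also varied with base composition. Over the 55 genes, the deviation of shG9a_4 replicate 2 from the mean of its 2 companions correlated with the GC content of the coding sequence at r = −0.48, and that of shG9a_1 replicate 1 at r = −0.31. These are correlations across genes within 1 library, given as a description. In shSCR, which holds none of the low libraries, r was −0.37 in replicate 2 and 0.32 in replicate 1. In shG9a_4 replicates 1 and 3 it was 0.49 and 0.39. Each library is also a companion of the other libraries in its group. Values of opposite sign within a group therefore mirror each other in part and are not separate findings. In shG9a_4 replicate 2, H3C13 (67.9% GC) was 1.09 below the shSCR mean on the log2 scale and H2AC16 (64.4% GC) was 1.01 below it, while H1-3 (54.5% GC) was at −0.066 and H1-1 (53.5% GC) at −0.14. H2AC25, at 67.9% GC, was at −0.32, so the relation was loose. In shG9a_1 replicate 1, genes of low GC content lay on both sides of the members' median of −0.42. H1-1 was at −0.60, H2BC14 (55.6% GC) at −0.73 and H2BC3 (54.5% GC) at −0.53. H1-3 was at −0.31, H4C3 and H4C8 (55.0% GC each) at −0.36 and −0.35, and H2BC15 (55.6% GC) at −0.31. These single values are differences from the shSCR mean, whereas r was taken from the companions. Over all 12846 tested genes with a coding sequence, the deviation from the companions also fell with GC content. There r was −0.50 in shG9a_4 replicate 2 and −0.37 in shG9a_1 replicate 1. In the fifth of genes with the highest GC content the median deviation from the companions was −0.37 in shG9a_4 replicate 2 and −0.20 in shG9a_1 replicate 1, beside −0.46 and −0.36 for the histone genes. The tested histone genes lie at 49.3 to 67.9% GC with a median of 60.8%, against a median of 52.1% over all these genes. The part of base composition in the low histone values was not tested.

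**Figure D4:**
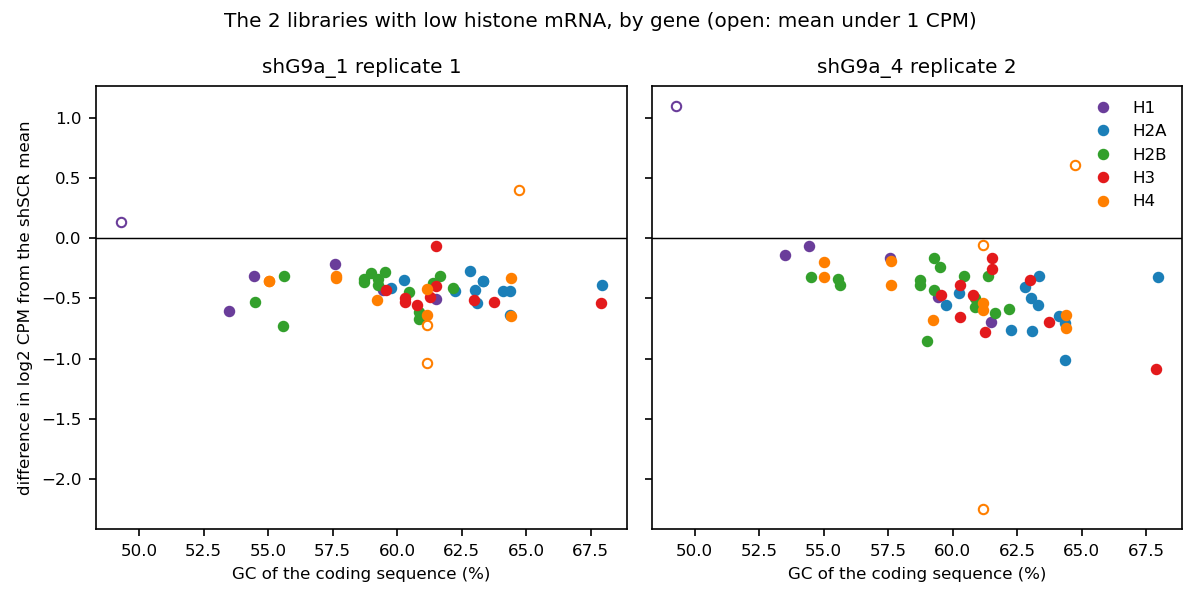
Difference in log2 CPM from the mean of shSCR against the GC content of the coding sequence (%) for the 55 tested histone genes in the 2 libraries with low sums, coloured by class, with open points for genes under 1 CPM on average. In shG9a_4 replicate 2 the points run from 1.09 (H1-6, under 1 CPM) to −2.25 (H4C15, under 1 CPM), with H1-3 at −0.066 and H3C13 at −1.09, and in shG9a_1 replicate 1 most lie between −0.3 and −0.7.

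Other short RNAs without a poly(A) tail were low in the same libraries in part. RN7SK, an abundant noncoding RNA that restrains transcription elongation, was at 6993 CPM in shG9a_4 replicate 2 and 8980 CPM in shG9a_1 replicate 1, and at 9389 to 10634 CPM in the other 7 libraries. TERC, the RNA template of telomerase, was at 5.15 and 7.31 CPM there, and at 9.73 to 13.9 CPM elsewhere. SNORD3A, RMRP and SCARNA7 did not single out these libraries: RMRP, the RNA of RNase MRP, was at 79.0 and 77.7 CPM in them and lowest, at 65.7 CPM, in shG9a_1 replicate 2. Of the 6 short RNAs tested 6 were lower in shG9a_1 and 4 in shG9a_4, with medians of −0.18 and −0.074 and no call, and RNU6ATAC, a minor spliceosome RNA, was at −0.79 (SE 0.43) in shG9a_1. The share of read pairs that mapped to several places was lowest in the same libraries, at 4.58% in shG9a_4 replicate 2 and 4.86% in shG9a_1 replicate 1, against 4.96 to 5.49% in the others. The part of these values in the low histone levels was not tested.

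In the main fit, which did not use the replicate number, no histone gene passed the threshold in any hairpin comparison. The threshold was an adjusted p under 0.05 over all genes tested, by edgeR. DESeq2 and the likelihood ratio test of edgeR also called 0. Nearly all members were nevertheless lower on average in each knockdown group. In shG9a_1 against shSCR, 50 of 55 were lower, with a median log2 fold change of −0.14 and a range of −0.87 to 0.56. Of the 55, 7 had an unadjusted p under 0.05, against 7.50% of all genes, and 0 were called, against 0.038% of all genes. In shG9a_4 against shSCR, 52 of 55 were lower, with a median of −0.11 and a range of −0.35 to 0.30. Here 1 of 55 had an unadjusted p under 0.05, against 2.38% of all genes, and 0 were called, against 0.0271% of all genes. Over all genes 49.8% and 49.2% were lower, with medians near 0 (0.00086 and 0.0021). Both comparisons use the same 3 control libraries. shG9a_4 against shG9a_1, the test of a difference between the hairpins, gave 20 lower and 35 higher genes with a median of 0.042. None had an unadjusted p under 0.05, against 4.09% of all genes, and none was called, where 0% of all genes were called. With both hairpins against shSCR, 51 of 55 were lower with a median of −0.13. Of the 55, 6 had an unadjusted p under 0.05, against 4.74% of all genes, and 0 were called, against 0.0488% of all genes.

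Without shG9a_1 replicate 1 and shG9a_4 replicate 2 the lower levels largely went. These libraries were left out because their sums of the same genes were lowest, so a rise of the medians was built in. In shG9a_1, 34 of 55 were then lower with a median of −0.024 and 0 were called, where 0.0053% of all genes were called and 7 of the 55 had an unadjusted p under 0.05. In shG9a_4, 16 of 55 were lower with a median of 0.048 and 0 were called, where 0% of all genes were called and 2 had an unadjusted p under 0.05. With both hairpins, 27 of 55 were lower with a median of 0.0063 and 0 were called, against 0.0265% of all genes, with 4 at an unadjusted p under 0.05. The share of all genes at that unadjusted level is not given for these fits.

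A smaller set of genes was lower in every library of a knockdown group. In shG9a_1 the 3 libraries lay below all 3 control libraries for 13 of 55 genes (23.6%), against 7.53% of all genes: H1-1, H2AC8, H2AC21, H2BC3, H2BC9, H2BC14, H2BC18, H2BC26, H3C7, H3C11, H4C1, H4C3 and H4C13. In shG9a_4 this held for 4 of 55 (7.27%), against 3.18% of all genes: H2BC6, H2BC14, H2BC26 and H3C6. All 6 knockdown libraries lay below all controls for 2 genes (3.64%), H2BC14 and H2BC26, against 1.3% of all genes. These counts include the 2 low libraries and were not taken without them. By itself, shG9a_1 replicate 1 lay below all controls for 51 of 55 genes, against 27.3% of all genes. For shG9a_4 replicate 2 this held for 50 of 55, against 29.4% of all genes. H4C9, at 0.139 to 0.269 CPM, was the single gene whose 3 shG9a_1 libraries all lay above the control.

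Among the linker histones, which bind where DNA enters and leaves the nucleosome, 5 of 6 were lower in each knockdown group, with medians of −0.16 and −0.098. H1-2, the gene with the highest count of all, was at 363, 388 and 380 CPM in shSCR, at 324, 367 and 407 CPM under shG9a_1 and at 391, 336 and 402 CPM under shG9a_4. The groups overlapped, and the log2 fold changes of −0.042 (SE 0.093, adjusted p = 0.953 in edgeR) and −0.0017 (SE 0.093) were within the spread. H1-5 was at 304, 306 and 301 CPM in shSCR, at 225, 293 and 304 CPM under shG9a_1 and at 309, 216 and 322 CPM under shG9a_4, with log2 fold changes of −0.15 (SE 0.14) and −0.11 (SE 0.14). The 2 low libraries stood farthest apart, and shG9a_1 replicate 2 was also below all 3 controls. Without the low libraries the values were −0.022 (SE 0.061) and 0.056 (SE 0.061). H1-1 differed from this: it was at 68.7, 89.1 and 76.5 CPM in shSCR, at 51.1, 62.2 and 63.9 CPM under shG9a_1 and at 62.8, 70.3 and 68.4 CPM in shG9a_4. All 3 shG9a_1 libraries and 2 of the 3 shG9a_4 libraries were below every control library, and its shG9a_4 replicate 2 was the highest of that group. H1-1 ranked first of all histone genes by p in shG9a_1, where it stood at −0.40 on the log2 scale (SE 0.11; adjusted p = 0.517 from edgeR) and in shG9a_4 at −0.22 (SE 0.11). Without the 2 low libraries these values were −0.30 (SE 0.10) and −0.25 (SE 0.10), neither called. H1-6, the testis form of H1, was close to the detection limit at 0.124 to 0.487 CPM.

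All 12 tested H2A genes were lower in both knockdown groups, with medians of −0.14 and −0.12. The leading pair were H2AC11 and H2AC8. H2AC11 was at 111, 117 and 115 CPM in shSCR, at 84.4, 106 and 121 CPM under shG9a_1 and at 114, 72.8 and 123 CPM in shG9a_4. H2AC8 was at 112, 114 and 115 CPM in shSCR, at 85.5, 106 and 109 CPM under shG9a_1 and at 121, 77.6 and 116 CPM in shG9a_4. For both, the 2 low libraries held the lowest values, and the log2 fold changes were −0.14 (SE 0.17) and −0.18 (SE 0.15) in shG9a_1 and −0.14 (SE 0.17) and −0.12 (SE 0.15) in shG9a_4. Without the low libraries H2AC11 was at −0.0081 (SE 0.076) and H2AC8 at −0.076 (SE 0.059) in shG9a_1. H2AC21, a gene of the HIST2 cluster, was low in shG9a_1 without a low library standing out: it was at 36.2, 32.7 and 31.3 CPM in shSCR, at 26.1, 27.4 and 26.9 CPM under shG9a_1 and at 32.2, 26.8 and 30.1 CPM in shG9a_4. Its log2 value in shG9a_1 was −0.32 (SE 0.088; adjusted p = 0.535 from edgeR) and −0.29 (SE 0.084) without the 2 low libraries, and in shG9a_4 it was −0.17 (SE 0.088).

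Of 15 tested H2B genes, 14 were lower in each knockdown group, with medians of −0.13 and −0.10. H2BC21 was at 123, 137 and 135 CPM in the control, at 102, 124 and 136 CPM under shG9a_1 and at 134, 106 and 139 CPM under shG9a_4. H2BC12 was at 133, 127 and 123 CPM in shSCR, at 102, 136 and 128 CPM under shG9a_1 and at 144, 82.8 and 134 CPM in shG9a_4. Neither differed beyond its spread, with log2 fold changes of −0.13 (SE 0.12) and −0.063 (SE 0.17) in shG9a_1 and −0.064 (SE 0.12) and −0.080 (SE 0.17) in shG9a_4. H2BC14 and H2BC26 were the 2 genes whose 6 knockdown libraries all lay below the control. H2BC14 was at 44.0, 49.5 and 43.9 CPM in shSCR, at 27.6, 38.0 and 38.1 CPM under shG9a_1 and at 42.6, 36.2 and 41.0 CPM in shG9a_4. H2BC26 was at 27.7, 33.9 and 30.5 CPM in shSCR, at 19.3, 24.5 and 27.4 CPM under shG9a_1 and at 24.7, 20.6 and 26.9 CPM in shG9a_4, so its highest knockdown value was close to its lowest control value. Their log2 fold changes were −0.41 (SE 0.12, adjusted p = 0.583 in edgeR) and −0.37 (SE 0.14, adjusted p = 0.62) in shG9a_1, and −0.20 (SE 0.12) and −0.35 (SE 0.14) in shG9a_4. Without the low libraries H2BC14 and H2BC26 stood at −0.26 (SE 0.077) and −0.24 (SE 0.11) in shG9a_1, more than 1.5 times smaller, and at −0.13 (SE 0.077) and −0.25 (SE 0.11) in shG9a_4. H2BC26 was the single member with an unadjusted p under 0.05 in shG9a_4. H2BC3 was at 61.4, 64.3 and 68.2 CPM in shSCR, at 44.7, 50.2 and 58.5 CPM under shG9a_1 and at 60.4, 51.6 and 63.2 CPM in shG9a_4, with log2 fold changes of −0.34 (SE 0.11) and −0.15 (SE 0.11), or −0.25 (SE 0.085) and −0.063 (SE 0.085) without the low libraries.

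Of 10 tested H3 genes, whose protein carries the lysine that G9a methylates, 9 were lower in shG9a_1 and 10 in shG9a_4, with medians of −0.17 and −0.11. H3C2 was at 158, 154 and 162 CPM in shSCR, at 117, 141 and 160.1 CPM under shG9a_1 and at 156, 114 and 169 CPM under shG9a_4. H3C8 was at 102, 99.3 and 108 CPM in shSCR, at 78.4, 88.8 and 102 CPM under shG9a_1 and at 102, 86.4 and 108 CPM in shG9a_4. The lowest value of each knockdown group came from its low library, and the log2 fold changes were −0.18 (SE 0.14) and −0.20 (SE 0.10) in shG9a_1 and −0.11 (SE 0.14) and −0.062 (SE 0.10) in shG9a_4. In shG9a_1 without the low libraries they were −0.060 (SE 0.075) and −0.11 (SE 0.079). H3C6, which has a stem-loop of its own form, was at 7.13, 7.34 and 6.20 CPM in shSCR, at 6.56, 6.48 and 5.77 CPM under shG9a_1 and at 5.91, 6.13 and 5.66 CPM in shG9a_4. It was the single H3 gene for which the low libraries stayed close to the control mean, at −0.067 and −0.17, and its log2 fold change in shG9a_4 was −0.23 (SE 0.12), not called.

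Of 12 tested H4 genes, 10 were lower in shG9a_1 and 11 in shG9a_4, with medians of −0.19 and −0.13. H4C3 was at 196, 205 and 236 CPM in shSCR, at 165, 166 and 195 CPM under shG9a_1 and at 187, 184 and 203 CPM under shG9a_4. Its 3 shG9a_1 libraries lay below the control, the highest by a narrow margin, and the log2 fold change was −0.28 (SE 0.089), which edgeR did not call (adjusted p = 0.592). In shG9a_4 it was −0.15 (SE 0.089). H4C8 was at 164, 180.4 and 195 CPM in shSCR, at 140.3, 139 and 171 CPM under shG9a_1 and at 164, 143 and 183 CPM under shG9a_4, with log2 fold changes of −0.26 (SE 0.11) and −0.14 (SE 0.11). For both H4 genes replicate 2 of shG9a_1 was as low as replicate 1, and without the low libraries H4C3 was at −0.23 (SE 0.10) and H4C8 at −0.21 (SE 0.11) in shG9a_1.

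**Figure D5:**
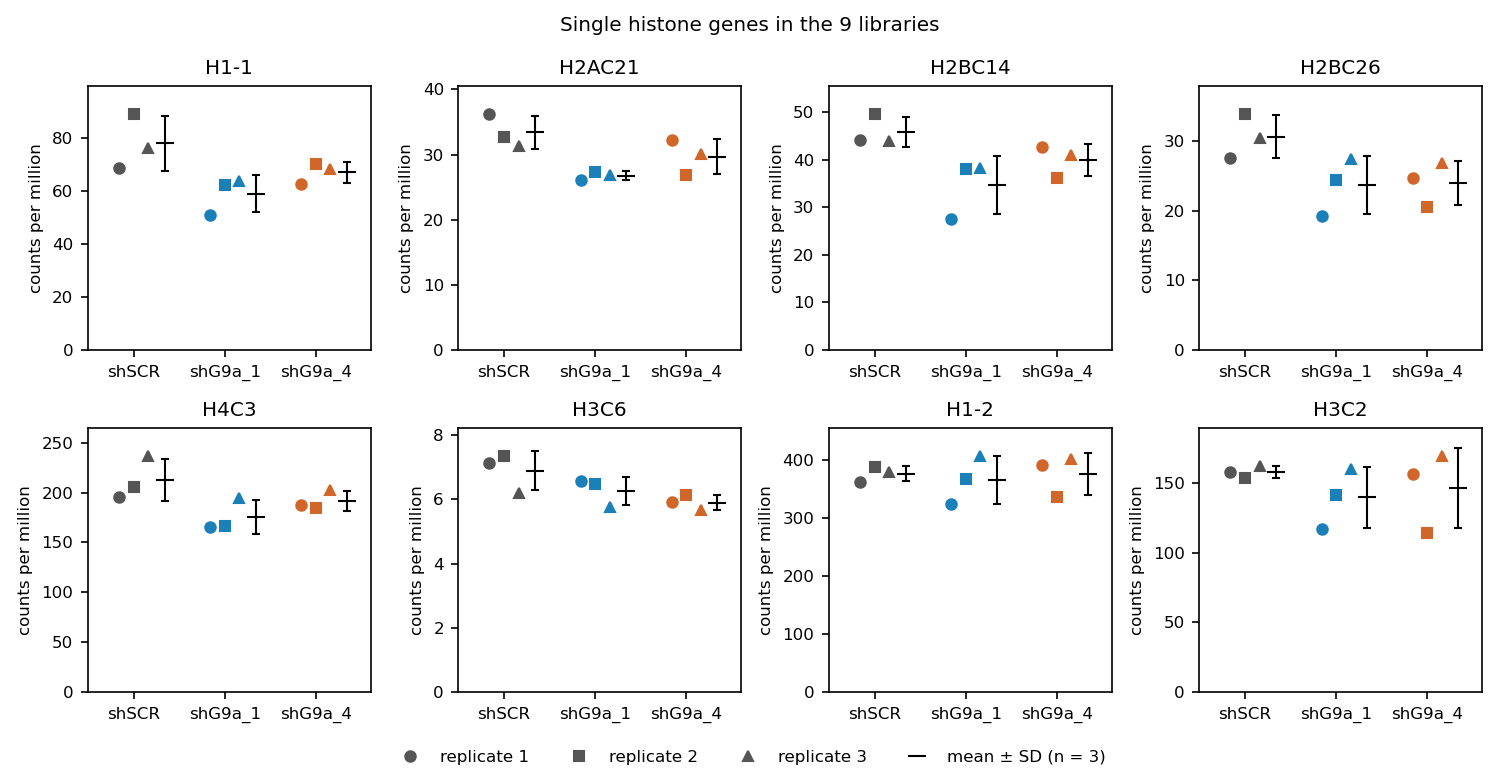
CPM of 8 histone genes in the 9 libraries, with points for libraries (the shape gives the replicate number) and bars for the mean ± SD of 3 libraries, all axes from 0. H1-1, H2AC21, H2BC14, H2BC26 and H4C3 have all 3 shG9a_1 libraries below the control, H3C6 has all 3 shG9a_4 libraries below it, and in H1-2 and H3C2 the groups overlap.

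Libraries with the same replicate number varied together, so the comparisons were also fitted with the number as a block. With it, H1-1 (adjusted p = 0.0337 in edgeR) and H4C3 (adjusted p = 0.0489) passed the threshold in shG9a_1, both lower with nearly the same log2 fold changes of −0.40 and −0.28, where 0.776% of all genes were called, and 14 of the 55 had an unadjusted p under 0.05. With the block and RLE scaling H1-1 alone was called. In shG9a_4 there were 0 calls against 0.0759% of all genes (4 with an unadjusted p under 0.05), and with both hairpins 0 calls against 0.184% (8 with an unadjusted p under 0.05). The share of all genes at an unadjusted p under 0.05 is not given for the fit with the block. Between replicate numbers, 1 of 55 histone genes differed, H1-6 (adjusted p = 0.0212 by edgeR), against 7.47% of all genes called. Unadjusted values under 0.05 were seen for 10 of the 55. H1-6 was highest in replicate 2 of each group, at 0.325, 0.487 and 0.443 CPM. The 2 low libraries carry different numbers, so the block does not describe their low sums.

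Of 27 genes for the transcription and 3' end processing of histone mRNA, 20 were lower in shG9a_1 and 14 in shG9a_4, with medians of −0.048 and −0.0085 and no call. Relative to the shSCR mean, the median of these genes was −0.018 in shG9a_1 replicate 1 and 0.013 in shG9a_4 replicate 2, and was lowest, at −0.093, in shG9a_1 replicate 2. SLBP was at 95.3, 102 and 91.9 CPM in shSCR, at 92.0, 89.5 and 93.9 CPM under shG9a_1 and at 95.4, 101 and 89.9 CPM in shG9a_4, so its levels in the libraries with low histone mRNA, 92.0 and 101 CPM, were within the range of the control. NPAT was at 47.9 to 52.7 CPM in shSCR, 46.5 to 46.9 CPM in shG9a_1 and 43.2 to 52.8 CPM in shG9a_4, the last of these in the low library. The lowest p in this list belonged to SNRPF and SNRPG, Sm proteins of spliceosomal snRNPs that are also part of the U7 snRNP, and to ZNF473, a U7-associated zinc finger protein, with log2 fold changes in shG9a_1 of −0.20 (SE 0.070), −0.18 (SE 0.067) and −0.19 (SE 0.071), none called. LSM11, a U7-specific protein, was at 0.041 and 0.12.

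Of 15 genes for histone mRNA translation and decay, TENT4B passed the threshold. TENT4B encodes a noncanonical poly(A) polymerase that tags RNAs for decay by the exosome. It was at 36.5, 37.6 and 37.3 CPM in shSCR, at 49.5, 48.7 and 49.1 CPM under shG9a_1 and at 49.3, 53.9 and 47.2 CPM in shG9a_4, with every knockdown library above every control. It rose in the 6 knockdown libraries against shSCR (0.42 on the log2 scale, SE 0.059; adjusted p = 0.046 from edgeR), and with the replicate block in each hairpin (adjusted p = 0.0297 and 0.0384), while the adjusted p without the block was 0.136 and 0.119. The other 14 were not called, MIF4GD, an SLBP partner in translation (0.47, SE 0.20, in shG9a_1), EXOSC10 of the exosome (−0.11, SE 0.058) and the exonuclease XRN1 (0.061, SE 0.089) among them, and the medians of the list were −0.0088 and −0.015.

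Of 28 histone chaperones and assembly factors, which carry new histones to DNA, 17 were lower in shG9a_1 and 15 in shG9a_4, with medians of −0.027 and −0.0062. ASF1A, the chaperone that hands H3 and H4 to the assembly complexes, was at 40.9, 35.1 and 35.0 CPM in shSCR, at 53.0, 45.0 and 45.6 CPM under shG9a_1 and at 52.9, 51.9 and 44.8 CPM in shG9a_4. Every knockdown library was above the control, with log2 fold changes of 0.37 (SE 0.098) and 0.43 (SE 0.098). ASF1A passed the threshold with the replicate block, in shG9a_1 (adjusted p = 0.0409 in edgeR) and with both hairpins (adjusted p = 0.0244), and not without it (adjusted p = 0.474 and 0.461). SUPT16H, a subunit of the FACT complex, had log2 fold changes of 0.21 (SE 0.065) and 0.25 (SE 0.065), and NASP, a chaperone of H1 and of H3 and H4, of −0.22 (SE 0.074) and −0.0068 (SE 0.074), none called. MCM2, a helicase subunit that also binds histones, was at −0.16 (SE 0.082) and −0.12 (SE 0.082).

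Of 46 S phase and DNA replication genes, 43 were lower in shG9a_1 and 42 in shG9a_4, with medians of −0.11 and −0.064 and no call. Of the 46, 11 and 1 had an unadjusted p under 0.05, against 7.50% and 2.38% of all genes. Their median relative to the shSCR mean was lowest in shG9a_1 replicate 2, at −0.18, and was −0.12 in shG9a_1 replicate 1 and −0.094 in shG9a_4 replicate 2, the libraries with the low histone sums. GINS2, a subunit of the replicative helicase, was at 49.9 to 54.8 CPM in shSCR, 41.1 to 49.2 CPM in shG9a_1 and 46.5 to 49.4 CPM in shG9a_4, and MCM3, another subunit, had log2 fold changes of −0.19 (SE 0.069) and −0.056 (SE 0.069). PCNA, the sliding clamp of DNA polymerase, was higher instead, at 248 to 258 CPM in shSCR, 271 to 299 CPM in shG9a_1 and 273 to 312 CPM in shG9a_4, with log2 fold changes of 0.16 (SE 0.067) and 0.22 (SE 0.067), neither called. RFC5 of the clamp loader, POLE2 of DNA polymerase epsilon and GINS3 of the helicase stood at −0.18, −0.24 and −0.16 on the log2 scale in shG9a_1, and at −0.055, −0.16 and −0.19 in shG9a_4. Of 26 G2/M and mitosis genes 22 were lower in shG9a_1 and 10 in shG9a_4, with medians of −0.060 and 0.021 and no call, and their median was highest, at 0.12, in shG9a_4 replicate 2. The mitotic genes HMMR, TTK and BUB1B stood at −0.17, −0.18 and −0.13 on the log2 scale in shG9a_1, and AURKA, TOP2A and CDC25C at 0.11, 0.094 and 0.080 in shG9a_4.

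The replication-independent histone variants, which are expressed outside S phase from polyadenylated mRNAs, gave no call among 12 genes, with 7 and 6 lower and medians of −0.023 and −0.011. H3-3B, an H3.3 gene, was at 458 to 540 CPM in shSCR, 476 to 528 CPM in shG9a_1 and 457 to 547 CPM in shG9a_4. H2AX, whose mRNA can also end at a stem-loop, was lowest in shG9a_4 replicate 2 at 20.6 CPM, against 25.3 to 36.4 CPM in the other 8 libraries. MACROH2A1 and CENPA, the centromeric H3, stood at −0.083 and −0.089 on the log2 scale for shG9a_1, and H2AZ1 and H3-5 at 0.14 and −0.39 in shG9a_4, none called.

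In the authors' deposited table for shG9a_1, 32 histone genes are listed and 31 have a fold below 1, against 5572 of 11015 genes, with a median fold of 0.902 against 0.995. In the authors' deposited table for shG9a_4, all 32 have a fold below 1, against 5785 of 11015 genes, with a median of 0.923 against 0.994. H2AC21 is the single histone gene with a posterior probability of a difference above 0.95, in the authors' deposited table for shG9a_1 (fold 0.789), where 322 genes (2.92%) pass that level, and no histone gene passes it in the authors' deposited table for shG9a_4, where 66 genes (0.599%) do. These tables come from the same libraries and are no independent measurement.

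Of the 66 matched genes 11 had too few reads to be tested. H2AC18, H2AC19, H2BC12L and H3C4 had no reads in any library, H4C7, H2AC1, H2AC7, H2AC17 and H2BC1, the last and H2AC1 known from testis, had 2 to 30 reads over the 9 libraries, and H3C15 and H3C14 had 46 and 59. For H2AC18, H2AC19, H3C14 and H3C15 all 75-base stretches of the coding sequence occur in another histone gene. A 75-base stretch of these coding sequences therefore does not name 1 gene by itself. The same holds for H4C11, H4C12, H4C14 and H4C15, which were tested and are among the 55, with 1427, 1429, 378 and 143 reads. The model of H4C12 holds no sequence beyond the coding sequence and stop codon, so its 1429 reads were counted despite the sharing. How such reads were placed was not tested. H4C15 gave the lowest log2 fold change in shG9a_1, −0.87. Of the 55 tested genes 35 share no 75-base stretch with another histone gene and 8 share over 50% of theirs. Among the other genes given with single values, H3C13 shares 70.96% of its stretches and H2BC12 shares 50%. H2BC21 and H2BC26 share 34.5% each, and H2BC15 shares 9.91%. H2BC18 and H2BC6, named among the genes lower in every library of a knockdown group, share 56.4% and 13.8%. The counts of all these genes are therefore uncertain.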

How the data were processed

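RNA-seq libraries of 9 cultures were analysed. The authors' deposited read counts per gene (column for reverse-stranded reads, which held 94.7 to 95.1% of the stranded gene reads) were used as deposited; the submitters' processing notes name builds hg19 and GRCh37 and the tools STAR 2.5.2a, DESeq, R 3.3.1 and edgeR 3.14.0, with no annotation release. Per the file headers, the authors' deposited tables give posterior probabilities of a difference (a score from 0 to 1) and a fold as a linear ratio, for each hairpin against shSCR. Summary lines that name no gene stayed out of library sizes and tests: no feature took 12.2 to 15.4% of read pairs, ambiguous 2.49 to 2.68%, multimapped 4.58 to 5.49% and unmapped 2.75 to 4.34%.

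Counts were scaled by TMM, filtered with filterByExpr and tested with edgeR 4.0.16 in R 4.3.3 (quasi-likelihood F-test, 3 groups in 1 fit, 6 residual degrees of freedom, Benjamini-Hochberg adjustment over 18435 genes, threshold 0.05). Plotted log2 CPM used a prior count of 2. Summed CPM was tested with exact two-sided permutation tests. DESeq2 1.42.0 was an alternative, beside no filter, the unstranded counts, RLE or raw scaling, the likelihood ratio test of edgeR, each library left out, and the replicate number as a block (4 residual degrees of freedom). Leaving out shG9a_1 replicate 1 and shG9a_4 replicate 2 together was chosen after seeing the data. Replicates are biological according to the design text. The 9 same-number pairs of libraries deviated together from their group means (r 0.178 to 0.461), so the number was used as a block in an alternative fit. The main fit and the permutation tests did not use it, since no label ties a number to a day or batch.

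Symbols, coding lengths and sequences came from GENCODE 29 and RefSeq GRCh38.p14, another build than the files'. Histone genes given singly were the 2 of highest mean CPM in each class, the 5 of lowest p for each hairpin and any past the threshold with or without the block; from each other list, the 3 of lowest p for each hairpin and any past the threshold, except 1 that is not reported here. SLBP, NPAT, H3-3B, H2AX, RN7SK, TERC, SNORD3A and the genes named for GC content, level per kilobase or groups apart were chosen after their values were seen. The members and lists were chosen with earlier results of these data known. Tested on simulated data for shG9a_1 against shSCR (18046 genes), the fit called 97 of 100 genes changed 2-fold, 16 of 100 changed 1.3-fold and 16 unchanged genes, so a change of 1.3-fold or less was mostly not detectable.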

Additional observations from a re-analysis of the deposited data

How the results depend on the processing

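No histone gene was called in any fit that left out 1 library. Without a filter on low counts, 3 members were called in shG9a_1 (H1-1, H2BC14, H2BC3) and 2 with both hairpins (H1-1, H2BC26). With the replicate block, 2 were called in shG9a_1, and none for the other comparisons. Block and RLE scaling together gave 1 in shG9a_1 (H1-1). Block without a filter gave 10 in shG9a_1, 1 in shG9a_4, 7 with both hairpins and 16 between replicate numbers. Both of these fits were chosen after seeing the data. The share of all genes called is not given for them or for the fit without a filter. Their counts of members therefore cannot be set against a background. The log2 ratio of summed CPM with pairing was −0.16 in shG9a_1, −0.11 in shG9a_4, 0.049 between the hairpins and −0.13 for both. Leaving out 1 library at a time, the median log2 fold change ranged from −0.25 to −0.024 in shG9a_1, −0.19 to 0.039 in shG9a_4, −0.083 to 0.18 between hairpins and −0.17 to −0.063 for both, and the summed log2 ratio from −0.24 to −0.049 in shG9a_1, −0.19 to 0.028 in shG9a_4, −0.052 to 0.18 between hairpins and −0.17 to −0.060 for both. In the same fits some genes changed sign. In shG9a_1 H1-2 ranged from −0.13 to 0.043 and H2BC12 from −0.14 to 0.052; H1-5 (−0.23 to −0.022), H2AC11 (−0.26 to −0.0084) and H3C2 (−0.29 to −0.061) shrank without changing sign. In shG9a_4 H1-2 ranged from −0.043 to 0.068, H1-5 from −0.20 to 0.047, H1-6 from −0.45 to 0.77, H2AC11 from −0.28 to 0.049, H2AC8 from −0.24 to 0.049, H2BC12 from −0.23 to 0.12, H2BC21 from −0.13 to 0.040, H3C2 from −0.21 to 0.038 and H3C8 from −0.12 to 0.020. Without both low libraries, the shG9a_4 median was 0.048, its summed ratio 0.028 and the median for both hairpins 0.0063. Single genes then stood at 0.043 (H1-2) and 0.052 (H2BC12) in shG9a_1, and in shG9a_4 at 0.077 (H1-2), 0.056 (H1-5), −0.44 (H1-6), 0.058 (H2AC11 and H2AC8), 0.13 (H2BC12), 0.049 (H2BC21), 0.047 (H3C2) and 0.029 (H3C8). These fits hold fewer libraries; the cause of the other shifts was not tested. Of 544 values of named histone genes, each hairpin against shSCR, 514 kept direction and side of the threshold, 5 passed it newly and 25 changed sign; in the other 2 comparisons 8 and 24 of 272 each changed sign. Depth limits genes under 1 CPM, such as H1-6 and H4C9.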
